A study of Mus musculus with 20 samples.

Results

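The chemokines and chemokine receptors described here are the genes of a mouse microarray whose names begin with Ccl, Cxcl, Cx3cl, Xcl, Ccr, Cxcr, Cx3cr or Xcr and a number. They were chosen by name alone and comprised 55 of the 25026 named genes, 36 of them ligands and 19 receptors, measured by 77 probes. A member was tested in a comparison when the scanner marked its probe as clearly above background on 6 or more of the 12 arrays, or 4 or more of the 8, which 44 members (30 ligands and 14 receptors) passed in each comparison. Ccl22, Ccl26, Ccr1, Ccr1l1, Cxcl2, Cxcl3, Cxcl15, Cxcl17, Cxcr5 and Xcr1 passed in neither, Cxcr1 was tested only in the first comparison and Cxcr2 only in the second. Chemokines are small secreted proteins that steer migrating immune cells, and each acts through 1 or more receptors that couple to G proteins on the surface of the cells they attract. In the gut, epithelial cells, stromal cells and resident immune cells all make chemokines. Intraepithelial T cells, lamina propria lymphocytes, macrophages, eosinophils and dendritic cells carry the receptors.

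RNA of intestinal tissue from 20 C57BL6/j mice, 8 to 12 weeks old in the first experiment, was hybridised to 1-colour arrays, 1 array per mouse. Cre control mice (n = 6) carried VillinCreER/0, a tamoxifen-inducible Cre driven by the Villin promoter and so active in gut epithelium, and BRAFV600E mice (n = 6) carried VillinCreER/0 together with BrafV600E-LSL/+, an inducible allele of the mutant kinase. Tamoxifen was given to both groups once a day for 3 days, at 2 mg a dose, and tissue was collected 3 days later. MEKi mice (n = 4) received the MEK inhibitor PD184352 and Vehicle mice (n = 4) its carrier, DMSO and Cremophor EL in water, on 3 consecutive days after 2 injections of tamoxifen. Each tamoxifen injection there was 100 microlitres at 10 mg per ml, so tamoxifen dosing differed between the 2 experiments. The labels give no genotype for the MEKi and Vehicle mice, which the study's figure legends describe as carrying the mutant allele. The first comparison asks what the mutant kinase changes within days, and the second what MEK, the kinase directly below BRAF, contributes in mutant tissue. The tissue is whole, so fewer cells of a type and less RNA per cell cannot be told apart.

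Values below are normalized log2 intensities, the log2 of the background-corrected signal of a probe minus the 75th percentile of its array, so that 1 unit is a doubling and 0 is the 75th percentile. A probe's brightness depends on its sequence, so levels were compared between arrays and never between genes. Between 60.8% and 76.8% of the 59305 spots of an array were well above background, and 0 spots were saturated. All 6 Cre control samples shared slide 1 with BRAFV600E replicates 1 and 2, and the other 4 BRAFV600E samples were on slide 2. The MEKi and Vehicle samples filled rows 1 and 2 of slide 3, so that row and treatment cannot be told apart. The recorded response slope of RNA spiked in at labelling was 0 on all 4 arrays of slide 2, and 0.759 to 0.843 on Cre control replicates 2, 3 and 5. Whether that 0 is a measured slope or a missing value is not known. Y-linked transcripts were high (mean level -1.30 to -0.96, against -6.25 to -4.92 on the other arrays) on Cre control replicates 1 to 3, BRAFV600E replicates 1, 2, 3 and 6, Vehicle replicates 1 and 3 and all 4 MEKi arrays. The methods state equal numbers of males and females in each group of the first experiment. Epithelial markers (Vil1, Epcam, Cdh1, Cdx1, Cdx2 and keratins) were well above background in every group. The genes of the ERK output list, which the kinase cascade is known to induce, moved with the labels, with 9 of 10 called higher in BRAFV600E (median difference 1.13) and 5 of 10 called lower under MEKi (median -1.60).

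Promoters, the stretches from 250 bases before to 50 bases after a transcription start, were available for 40 of the 55 members from RefSeq (GRCm38.p6). They are shown for the neighbouring genes Ccl9, Ccl6 and Ccl3, whose transcripts all fell in BRAFV600E, and for Cxcl9 and Cxcl10, ligands that interferon-gamma is known to induce. Both strands were searched for GAAANNGAA (the core of the interferon-stimulated response element), TTCNNNGAA (the gamma-activated site), GGGANTTTC (an NF-kB site) and TGANTCA (an AP-1 site, the family of FOS and JUN), where N is any base. Capitals mark the matches and each sequence reads 5′ to 3′ on the gene's strand. Ccl9 (chr11:83578587-83578886, minus strand) held 1 AP-1 match, Ccl6 (chr11:83593038-83593337, minus strand) held 0 matches and Ccl3 (chr11:83649329-83649628, minus strand) held 1 interferon element on the opposite strand. Cxcl9 (chr5:92328030-92328329, minus strand) held an interferon element, an NF-kB site and an AP-1 site, and Cxcl10 (chr5:92348840-92349139, minus strand) an interferon element and an AP-1 site.
Ccl9: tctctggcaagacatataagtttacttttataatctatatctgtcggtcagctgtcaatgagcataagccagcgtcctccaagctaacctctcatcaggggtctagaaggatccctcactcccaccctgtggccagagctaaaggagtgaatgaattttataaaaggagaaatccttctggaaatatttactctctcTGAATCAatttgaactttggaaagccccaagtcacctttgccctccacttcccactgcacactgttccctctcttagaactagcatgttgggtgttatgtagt
Ccl6: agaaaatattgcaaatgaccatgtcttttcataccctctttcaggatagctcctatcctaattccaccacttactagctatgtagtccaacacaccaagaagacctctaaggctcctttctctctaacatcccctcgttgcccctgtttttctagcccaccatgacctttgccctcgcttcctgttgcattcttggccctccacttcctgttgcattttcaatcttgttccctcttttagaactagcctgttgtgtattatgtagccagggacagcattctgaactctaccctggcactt
Ccl3: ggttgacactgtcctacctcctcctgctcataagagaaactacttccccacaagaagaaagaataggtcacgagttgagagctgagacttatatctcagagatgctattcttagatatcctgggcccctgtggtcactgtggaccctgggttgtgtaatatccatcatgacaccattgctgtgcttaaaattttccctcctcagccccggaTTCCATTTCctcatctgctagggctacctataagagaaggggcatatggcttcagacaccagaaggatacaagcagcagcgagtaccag
Cxcl9: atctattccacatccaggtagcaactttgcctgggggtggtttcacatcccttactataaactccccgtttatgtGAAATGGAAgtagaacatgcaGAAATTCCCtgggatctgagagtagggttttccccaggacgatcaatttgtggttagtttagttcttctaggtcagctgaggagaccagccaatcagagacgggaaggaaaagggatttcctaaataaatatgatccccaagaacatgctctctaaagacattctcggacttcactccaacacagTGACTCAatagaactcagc
Cxcl10: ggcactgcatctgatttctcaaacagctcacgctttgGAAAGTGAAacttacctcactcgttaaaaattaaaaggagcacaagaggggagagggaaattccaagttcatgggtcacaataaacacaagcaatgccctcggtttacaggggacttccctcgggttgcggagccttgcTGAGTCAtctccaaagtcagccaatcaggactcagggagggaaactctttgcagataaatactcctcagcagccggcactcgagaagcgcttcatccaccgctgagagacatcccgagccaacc

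Shares of members are given against the share of all 27025 genes with a promoter in the table. The interferon element was found in 8 of 40 members (20.0%) against 9.76%, the gamma-activated site in 4 of 40 members (10.0%) against 9.55%, the NF-kB site in 6 of 40 members (15.0%) against 1.29% and the AP-1 site in 8 of 40 members (20.0%) against 8.97%. The NF-kB matches lay in Ccr3, Cxcl1, Cxcl2, Cxcl3, Cxcl9 and Cxcr2, of which Cxcl1, Cxcl2 and Cxcl3 are neutrophil attractants and Cxcr2 is their receptor. Cxcl1, Cxcl2 and Cxcl3 lie close together on chromosome 5, so their matches may not be independent. Cxcl2 and Cxcl3 were below the filter in both comparisons. A narrower AP-1 motif, TGACTCA, which is also a match of the first, was found in 6 of 40 members (15.0%) against 5.95%. Of the 8 members that passed the test in BRAFV600E and have a promoter in the table, 1 held the interferon element (Ccl3), 0 held the gamma-activated site, 1 held the NF-kB site (Ccr3) and 2 held the AP-1 site (Ccl9 and Ccr3). The narrower AP-1 motif was held by 1 of these 8 (Ccr3), since the Ccl9 match reads TGAATCA. These are counts of letters in a fixed window, and sequence outside it was not searched.

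In BRAFV600E tissue 1 chemokine rose and 10 members fell. Cxcl16, which is made as a membrane-anchored protein by epithelial and myeloid cells, rose 2.32-fold, whereas its receptor Cxcr6, carried by resident T cells, fell. The other 9 that fell were the CC ligands Ccl3, Ccl4, Ccl6, Ccl9 and Ccl25, the CXC ligand Cxcl11 and the receptors Ccr3, Cxcr3 and Cx3cr1. Thus 11 of 44 tested members (25.0%) were called at a limma adjusted p under 0.05, against 12.5% of the 19039 genes tested. The 10 members called lower made up 22.7% of those tested, against 6.27% of all genes, and the 1 called higher compares with 6.19% of all genes. The median difference was -0.52 over the 44 members (-0.55 over the 30 ligands and -0.47 over the 14 receptors) and -0.02 over all genes tested, and 34 of the 44 differences (77.3%) were negative against 51.6% of all genes. BRAFV600E and Cre control values were fully separate for 4 members (Cxcl16, Cxcr6, Ccl3 and Ccl4), which is 9.09% of those tested and near the 7.36% of all genes.

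These directions are relative to the array's own scale. Without scaling between arrays the median of all genes lay 0.79 higher in BRAFV600E, 5 members were called higher and 1 lower, and Ccl25, Ccr3, Cx3cr1, Cxcl11, Cxcr3 and Cxcr6 had small positive differences (0.06 to 0.26) that were -0.73 to -0.53 once that shift was taken off. The T cell markers called lower below follow the same rule: without scaling the list's median was 0.07, or -0.73 relative to that shift, and 3 of its genes were called higher. Quantile normalization gave 2 members higher and 8 lower, and normexp background correction 1 higher and 6 lower. Ccl4, Ccr3, Cxcl11 and Cxcr3 lost their calls under both, so the members called under quantile normalization are not all the same ones. Ccr3 lost its call in 20 of 24 alternative settings. Over all genes, leaving out scaling between arrays gave 9160 higher and 176 lower calls, against 1179 and 1193 with scaling.

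**Figure D1:**
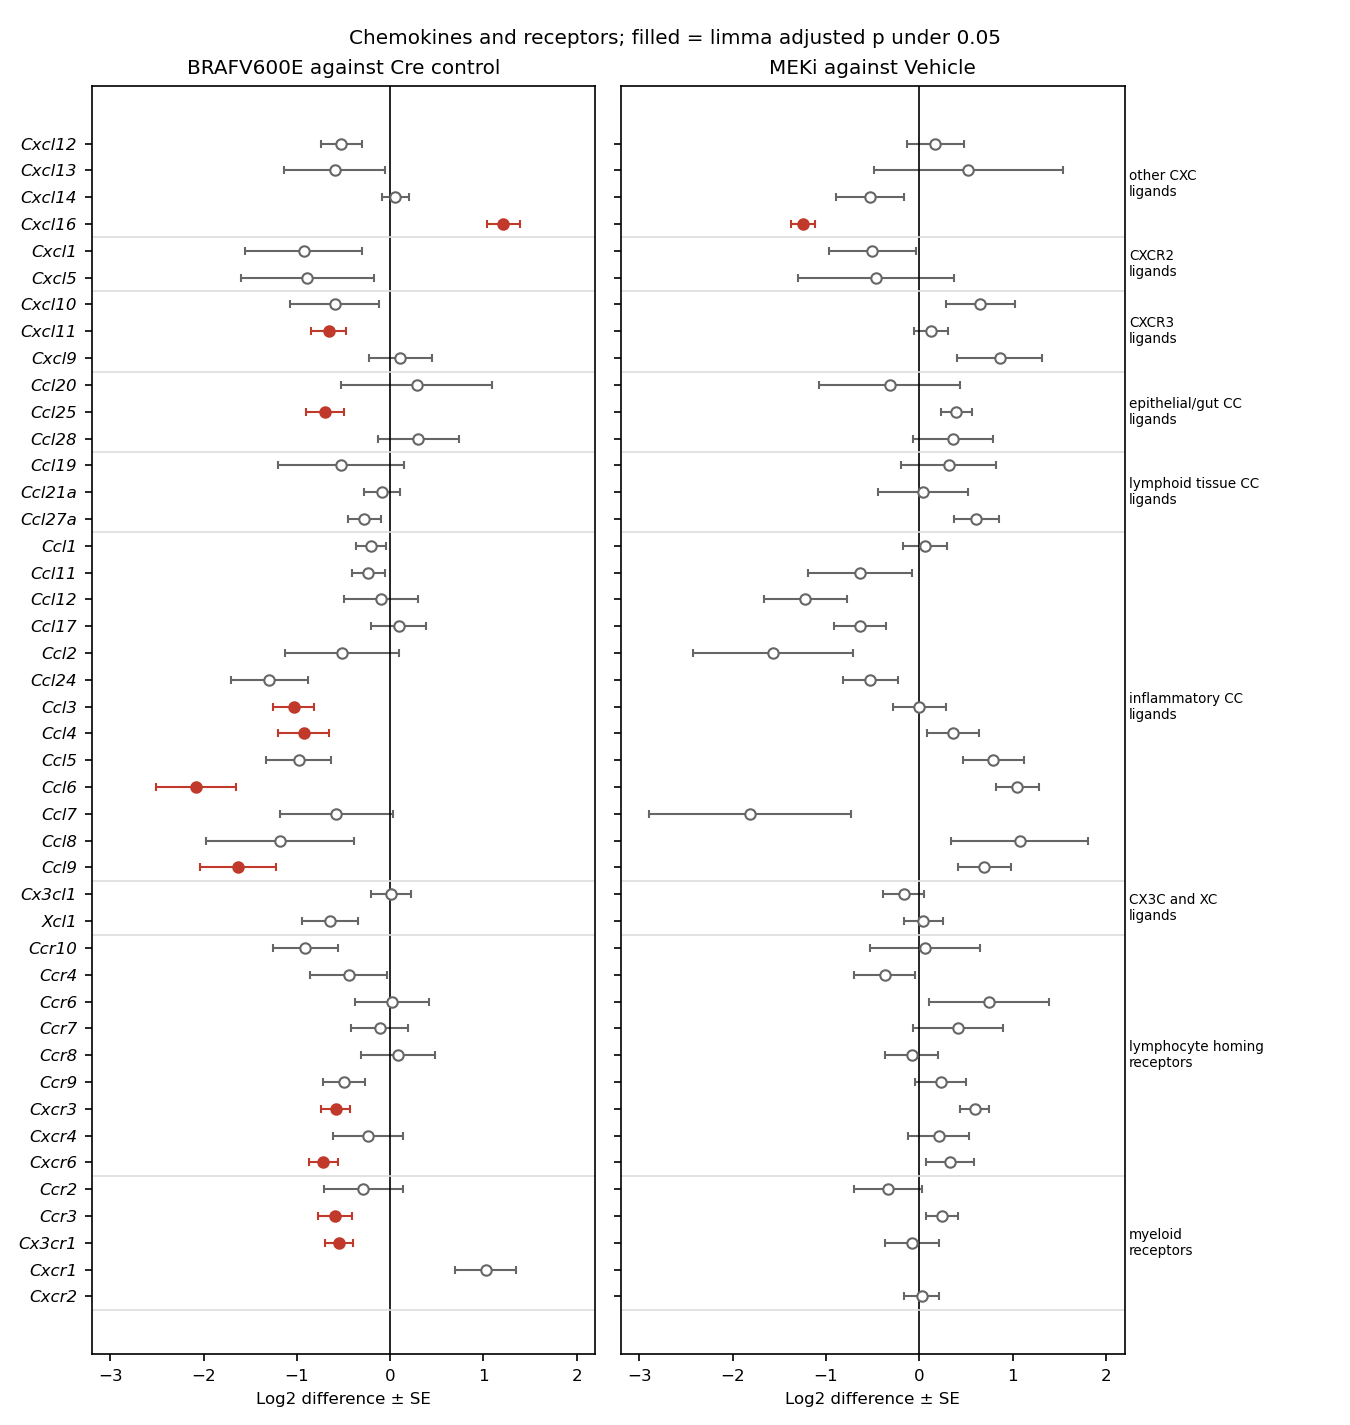
Log2 differences (x axis, ± SE) of 43 of the 44 members tested in each comparison, grouped by role, in BRAFV600E against Cre control (left) and MEKi against Vehicle (right); filled red points passed a limma adjusted p of 0.05. Cxcl16 is the single member filled on both sides, at 1.21 on the left and -1.24 on the right, and most points on the left lie below 0.

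Cxcl16 was the only member called in both comparisons. Its probe lies at chr11:70269481-70269540 (mm9). On Cre control arrays the lowest, median and highest levels were -0.33, -0.11 and 0.55, and on BRAFV600E arrays 0.93, 1.18 and 1.53. Every BRAFV600E array thus stood above every Cre control array (log2 difference 1.21, SE 0.18, limma adjusted p = 0.00148). Under Vehicle the 4 arrays read 1.27, 1.07, 1.11 and 1.24, and under MEKi -0.25, -0.14, 0.18 and -0.08. All 4 MEKi arrays lay below all 4 Vehicle arrays, a level 2.37 times lower (log2 difference -1.24, SE 0.13, limma adjusted p = 0.00613). A probe of Cxcl16 at chr11:70267780-70267839 gave 0.73 and -0.81 in the 2 comparisons. Of the 18576 genes tested in both comparisons 201 were called in both, all 201 with opposite signs, and Cxcl16 was the single member among them. Within slide 1, where 2 BRAFV600E arrays met 6 Cre control arrays, Cxcl16 differed by 1.19 (limma adjusted p = 0.0509), and by 1.19 (limma adjusted p = 0.0176) once slide was blocked. On arrays with high Y-linked signal only, the MEKi difference was -1.26 (4 against 2 arrays, limma adjusted p = 0.0535), and without scaling between arrays it was -1.27 (limma adjusted p = 0.122).

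Cxcr6, the receptor for CXCL16, moved the other way in BRAFV600E tissue. Cre control arrays read -0.70, -0.40 and -0.23 (lowest, median and highest) and BRAFV600E arrays -1.53, -1.16 and -0.83, again without overlap (log2 difference -0.72, SE 0.16, limma adjusted p = 0.0130). A separate Cxcr6 probe gave -0.66. The MEKi arrays, at -1.33, -2.21, -1.06 and -1.25, overlapped the Vehicle arrays, at -1.87, -1.46, -1.79 and -2.04, and the difference was 0.33 (SE 0.26, limma adjusted p = 0.603). MEKi replicate 2 held the lowest Cxcr6 value of its group, below every Vehicle array.

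**Figure D2:**
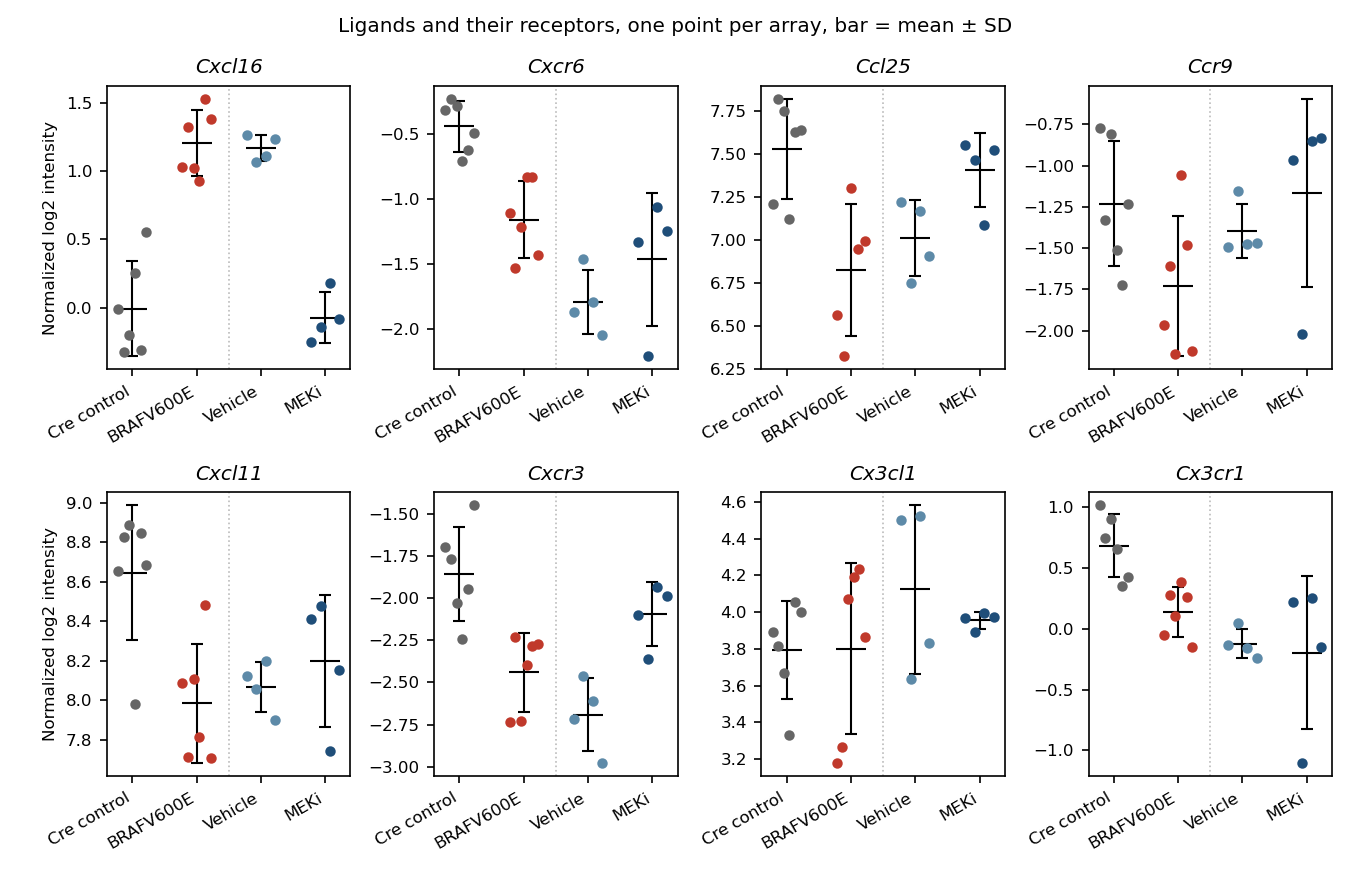
Normalized log2 intensity (y axis) of 4 ligands and their receptors in the 4 groups (x axis), with 1 point per array and bars for the mean ± SD; the dotted line separates the 2 experiments. Cxcl16 is higher in BRAFV600E than in Cre control and lower in MEKi than in Vehicle on every array, while Cxcr6 is lower in BRAFV600E than in Cre control on every array.

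The ligands that fell furthest were the inflammatory CC chemokines, which recruit monocytes, T cells and eosinophils. Of 13 tested, 4 were called lower and 0 higher, and 12 had negative differences (median -0.93), against 6.27% of all genes called lower and 51.6% with negative differences. Without scaling between arrays 1 of the 13 was called higher and 1 lower (median -0.12, or -0.91 relative to the shift of all genes). Ccl6, made by macrophages and other myeloid cells and acting on CCR1, had Cre control levels of 3.29, 4.35 and 4.81 and BRAFV600E levels of 0.99, 2.14 and 3.80. Only BRAFV600E replicate 3, at 3.80, reached into the control range, and the mean was 4.23 times lower (log2 difference -2.08, SE 0.43, limma adjusted p = 0.0103). Ccl9, a close relative that also acts on CCR1, stood at 1.60, 2.002 and 3.09 in Cre control and at -0.27, 0.30 and 2.15 in BRAFV600E. Here, too, only replicate 3 of BRAFV600E overlapped the controls (log2 difference -1.63, SE 0.41, limma adjusted p = 0.0233).

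Ccl3 and Ccl4, made by activated T cells and macrophages, fell without overlap. Ccl3 read -3.11, -2.999 and -2.08 on Cre control arrays and -4.48, -3.84 and -3.44 on BRAFV600E arrays (log2 difference -1.03, SE 0.22, limma adjusted p = 0.0111). Ccl4 read -2.15, -1.47 and -1.25 in Cre control and -3.66, -2.21 and -2.16 in BRAFV600E (log2 difference -0.93, SE 0.27, limma adjusted p = 0.0438), and another probe gave -0.99. The highest BRAFV600E value of Ccl4 lay just under the lowest control value. Ccl5, abundant in cytotoxic T cells, ranged from 2.78 to 4.87 in Cre control and from 1.90 to 3.64 in BRAFV600E, a difference of -0.98 (SE 0.35, limma adjusted p = 0.0794) that did not pass. It passed without Cre control replicate 4, at -1.22 (limma adjusted p = 0.0202). Leaving out that array also raised the calls over all genes from 2372 to 2863.

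By the file's mm9 probe positions Ccl5, Ccl9, Ccl6, Ccl3 and Ccl4 lie within chr11:83339296-83478111, and Ccl2, Ccl7, Ccl11, Ccl12, Ccl8 and Ccl1 within chr11:81850650-81990510. This split was made after the values were seen and carries no test of its own. In BRAFV600E, 4 of the 5 genes of the first block were called lower, against 6.27% of all genes, with differences of -2.08 to -0.93. In the other block 0 of 6 were called, with 6 negative differences of -1.18 to -0.10. Under MEKi the first block ran from -6.36e-05 to 1.05 and the other from -1.81 to 1.08, with 0 calls in either.

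**Figure D3:**
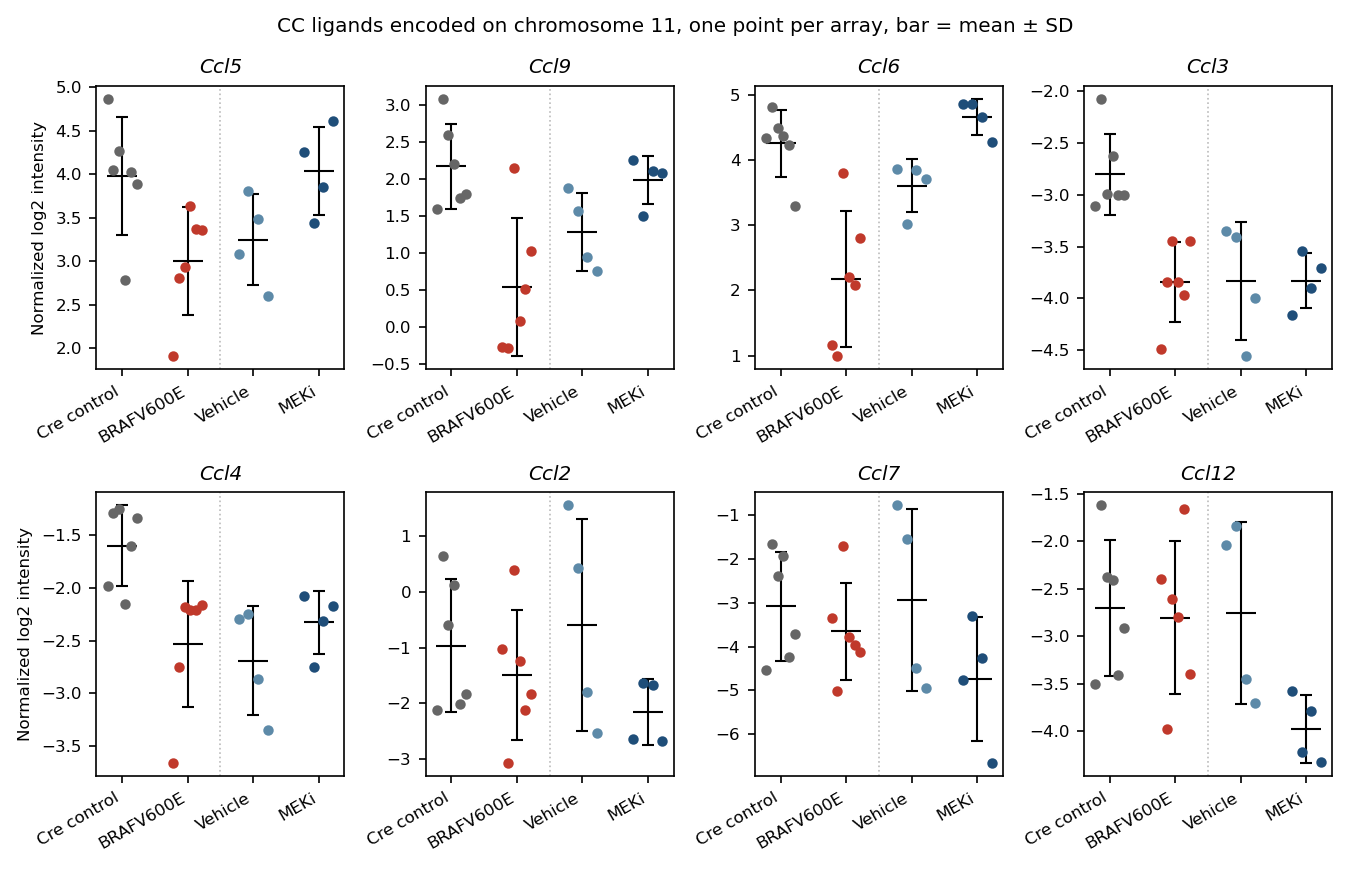
Normalized log2 intensity (y axis) of 8 CC ligand genes of chromosome 11 in the 4 groups (x axis), with 1 point per array and bars for the mean ± SD. Ccl9, Ccl6, Ccl3 and Ccl4 are lower in BRAFV600E than in Cre control, whereas the Ccl2, Ccl7 and Ccl12 points of those groups overlap widely.

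None of the monocyte and eosinophil attractants outside that block passed the test. Ccl2, the main ligand of CCR2, ranged from -2.13 to 0.64 in Cre control and from -3.07 to 0.39 in BRAFV600E (log2 difference -0.52, SE 0.61, limma adjusted p = 0.613). Ccr2, its receptor on monocytes, differed by -0.29 (SE 0.43, limma adjusted p = 0.695). Ccl8 differed by -1.18 (SE 0.79, limma adjusted p = 0.341), with Cre control arrays from -1.89 to 2.77, wider than the difference. Ccl24, an eosinophil attractant that acts on CCR3, stood at 1.26, 1.80 and 2.87 in Cre control and -1.12, 0.90 and 1.44 in BRAFV600E, with a difference of -1.30 (SE 0.41, limma adjusted p = 0.0578). Ccl11, likewise an eosinophil attractant, ranged from 0.07 to 1.07 in Cre control and from 0.04 to 0.72 in BRAFV600E (log2 difference -0.23, SE 0.18, limma adjusted p = 0.421). Ccr3, the eosinophil receptor for CCL24 and CCL11, was called lower, from -3.33, -2.69 and -2.44 to -3.64, -3.44 and -3.07 (log2 difference -0.59, SE 0.18, limma adjusted p = 0.0476). The defining eosinophil gene Epx was not well above background on any array, and 0 of the 5 eosinophil and mast cell markers tested were called (median -0.47, list mean -3.78 to -2.87 in Cre control and -3.73 to -3.10 in BRAFV600E).

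Among gut-homing signals, the epithelial chemokine Ccl25 fell. CCL25 is secreted by small-intestinal epithelium and draws T cells and plasma cells that carry CCR9. Ccl25 had Cre control levels of 7.12, 7.63 and 7.82 and BRAFV600E levels of 6.32, 6.94 and 7.30, with overlap between 7.12 and 7.30 (log2 difference -0.70, SE 0.20, limma adjusted p = 0.0438). Its fit used 11 of the 12 arrays, since 1 spot carried an outlier mark. The 3 other measurable Ccl25 probes gave -0.96 to -0.10. Ccr9 differed by -0.50 (SE 0.23, limma adjusted p = 0.157), from -1.72 to -0.77 in Cre control and from -2.14 to -1.06 in BRAFV600E. Ccl28, the mucosal ligand of CCR10, differed by 0.30 (SE 0.44, limma adjusted p = 0.690) and its other probe by -0.13. Ccr10, found on plasma cells and T cells of mucosa and skin, differed by -0.91 (SE 0.35, limma adjusted p = 0.100). Ccl20, which epithelium over lymphoid follicles makes for CCR6-bearing cells, ranged over -1.95 to 2.74 in Cre control and -1.45 to 1.48 in BRAFV600E (log2 difference 0.28, SE 0.81, limma adjusted p = 0.852), and Ccr6 differed by 0.02 (SE 0.40, limma adjusted p = 0.982).

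The receptor of interferon-induced ligands fell, and of its 3 ligands 1 fell. Cxcr3, carried by effector T cells, read -2.25, -1.86 and -1.45 on Cre control arrays and -2.73, -2.34 and -2.23 on BRAFV600E arrays (log2 difference -0.58, SE 0.16, limma adjusted p = 0.0319). Cxcl11, of which C57BL/6 mice carry a frameshifted copy that makes no full-length protein, read 7.98, 8.76 and 8.89 in Cre control and 7.71, 7.95 and 8.48 in BRAFV600E (log2 difference -0.66, SE 0.19, limma adjusted p = 0.0381), with Cre control replicate 4 below the other controls, and its other probe gave -0.45. Under quantile normalization the Cxcl11 difference shrank to -0.14 (limma adjusted p = 0.517). Cxcl9 and Cxcl10, whose promoters are printed earlier, differed by 0.11 (SE 0.33, limma adjusted p = 0.864) and -0.59 (SE 0.48, limma adjusted p = 0.436). Of 18 interferon-gamma responsive genes, 2 were called lower (Gbp2 and Gbp3, guanylate-binding proteins of cell-autonomous defence) and 0 higher, with a median of -0.52. These 2 are 11.1% of the list, against 12.5% of all genes called and 6.27% called lower. Quantile normalization called 5 of the 18 lower and normexp background correction 4, and without scaling 1 was called higher and 0 lower. Of 12 NF-kB responsive genes tested, the cytokine genes Il1b, at -1.14 (limma adjusted p = 0.0252), and Csf2, at -0.94 (limma adjusted p = 0.0141), were called lower, with a list median of -0.26. That is 16.7% of the list, against 6.27% of all genes called lower. Without scaling 2 NF-kB responsive genes were called higher and 0 lower.

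Cx3cr1, the fractalkine receptor of gut macrophages and some T cells, was also called lower. Its levels were 0.35, 0.70 and 1.02 in Cre control and -0.15, 0.19 and 0.38 in BRAFV600E, with a small overlap (log2 difference -0.55, SE 0.15, limma adjusted p = 0.0335), and its other probe gave -0.10. Cx3cl1, the membrane-bound ligand fractalkine, differed by 0.01 (SE 0.21, limma adjusted p = 0.988). Of the 5 ligands of the neutrophil receptor CXCR2, 2 passed the filter. Cxcl1 and Cxcl5 differed by -0.93 (SE 0.63, limma adjusted p = 0.345) and -0.89 (SE 0.71, limma adjusted p = 0.436), Cxcl2 and the receptor Cxcr2 were below the filter, and Cxcr1, also a neutrophil receptor, differed by 1.02 (SE 0.33, limma adjusted p = 0.0573), the largest positive difference after Cxcl16. Lymphoid organisers gave no call. Cxcl13, the B cell attractant, differed by -0.60 (SE 0.54, limma adjusted p = 0.494), Ccl19 and Ccl21a by -0.52 (SE 0.68, limma adjusted p = 0.647) and -0.09 (SE 0.20, limma adjusted p = 0.809), and their receptor Ccr7 by -0.11 (SE 0.30, limma adjusted p = 0.846). Ccl21a has near-identical gene copies, so its signal may be shared with them. The stromal Cxcl12 and its receptor Cxcr4 differed by -0.52 (SE 0.22, limma adjusted p = 0.138) and -0.24 (SE 0.37, limma adjusted p = 0.719). Cxcl14, an epithelial chemokine with a debated receptor, differed by 0.06 (SE 0.14, limma adjusted p = 0.835), and another probe of the gene by -0.45. Xcl1, made by cytotoxic lymphocytes, differed by -0.65 (SE 0.30, limma adjusted p = 0.169), and its receptor Xcr1 was below the filter. Ccl17 and its receptor Ccr4, Ccl27a and Ccr8 differed by 0.09, -0.45, -0.28 and 0.09, with limma adjusted p-values of 0.316 or more, and Ccl27a too has near-identical copies.

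Markers of the cells that carry these receptors were examined beside the members. Of 11 T cell markers, 3 were called lower (27.3%, against 6.27% of all genes) and 0 higher (median -0.74). The 3 were Cd3g at -0.98 (limma adjusted p = 0.0375), Lck at -0.93 (limma adjusted p = 0.0293) and Cd8a at -0.83 (limma adjusted p = 0.0365). The mean of the T cell list ran from -0.52 to 0.62 in BRAFV600E and from 0.01 to 0.85 in Cre control. The 7 cytotoxic intraepithelial lymphocyte markers tested gave 0 calls and 7 negative differences (median -0.31). Of 9 macrophage markers 1, Csf1r, was called lower at -0.69 (limma adjusted p = 0.0133), with a list mean of 0.09 to 0.91 in BRAFV600E and 0.14 to 1.29 in Cre control. That is 11.1% of the list, against 6.27% of all genes called lower, and 8 of the 9 differences were negative (median -0.30). Of 6 dendritic cell markers 2 were called lower, Cd209a and Itgax (33.3%, against 6.27% of all genes), and 2 had positive differences (median -0.17). Of 8 B cell markers 1 was called lower, Pax5 (12.5%, against 6.27% of all genes), and 2 had positive differences (median -0.44). Of 7 neutrophil markers 0 were called, and all 7 had negative differences (median -0.42). Sdc1, the 1 plasma cell marker of 5 that was called, was higher at 0.76 (limma adjusted p = 0.00800) and is also made by epithelium, while the other 4 had negative differences. Of 6 fibroblast and 6 endothelial markers 0 were called. Of 9 epithelial markers 3 were called higher, Cdh1, Krt18 and Krt19 (33.3%, against 6.19% of all genes), and 3 had negative differences (median 0.19). Without scaling 8 epithelial, 2 dendritic cell, 2 B cell and 1 macrophage marker were called higher and 0 of these lists lower, and normexp background correction called 3 macrophage markers lower. All defining markers of the T cell and macrophage lists were well above background on some arrays of each group. The part of these markers in the members' differences was not tested.

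**Figure D4:**
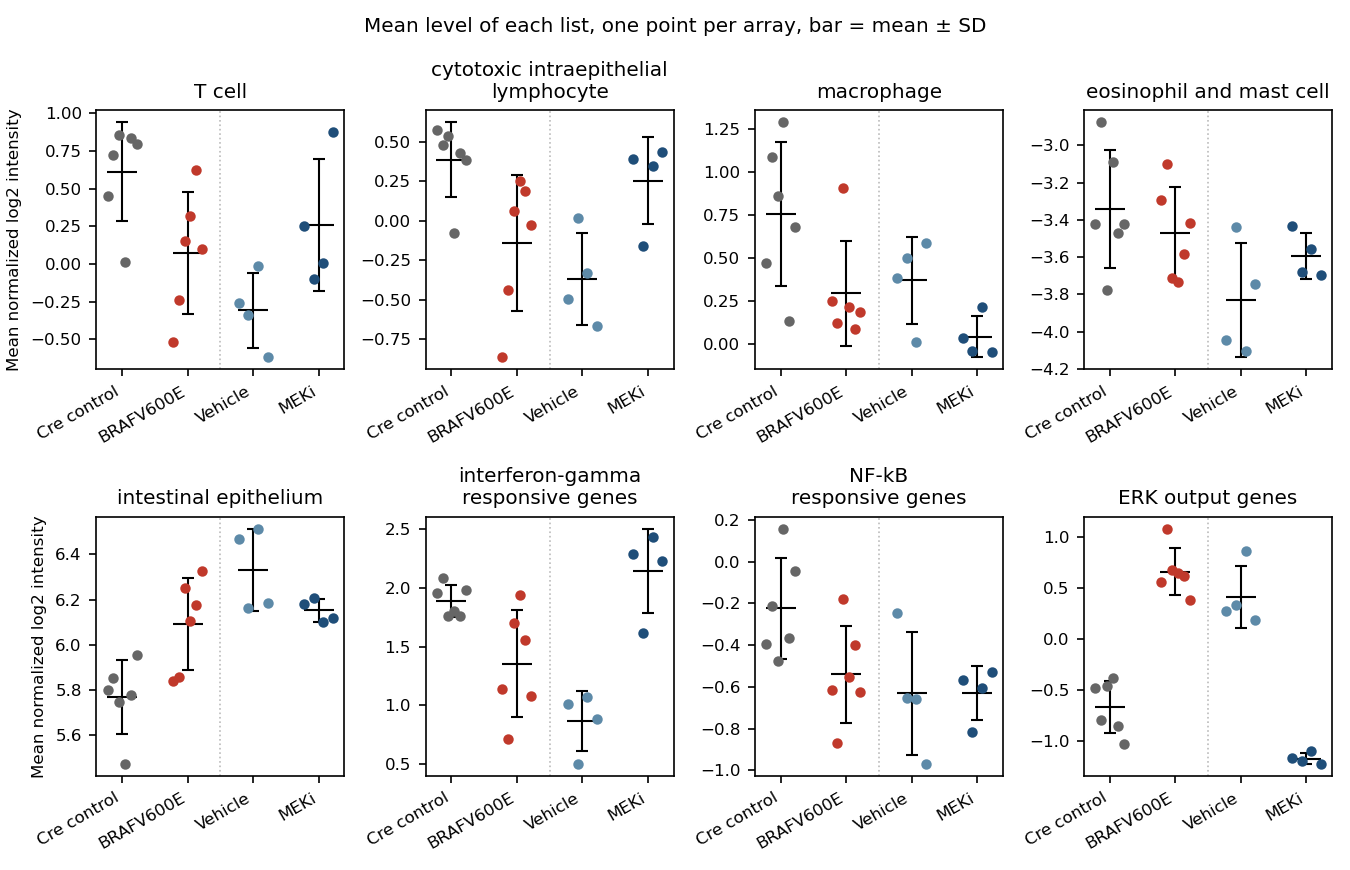
Mean normalized log2 intensity over each marker or pathway list (y axis) in the 4 groups (x axis), with 1 point per array and bars for the mean ± SD. ERK output is higher in BRAFV600E than in Cre control and lower in MEKi than in Vehicle on every array, and interferon-gamma responsive genes are higher under MEKi than under Vehicle on every array.

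Of 26 signalling genes tested, 6 were called lower and 3 higher (34.6%, against 12.5% of all genes), whereas without scaling between arrays 11 were called higher and 0 lower. Those lower included the guanine exchange factors Dock2 and Vav1, the PI3-kinase adaptor Pik3r5 and the regulator of G protein signalling Rgs1, with differences from -0.84 (Vav1) to -0.72 (Pik3r5). Those higher were Gnb1, at 0.99 (limma adjusted p = 0.0141), and the receptor kinases Grk5, at 1.22 (limma adjusted p = 0.00816), and Grk6, at 0.90 (limma adjusted p = 0.00199). Of 10 atypical receptors and relatives tested, 4 were called lower (40%, against 6.27% of all genes) and 0 higher. Under normexp background correction 2 were called lower, and without scaling 1. The 4 were Ackr4, a scavenging receptor for CCL19, CCL21 and CCL25, at -1.03 (limma adjusted p = 0.0187), Ccrl2 at -0.57 (limma adjusted p = 0.0423), the platelet chemokine Pf4 at -0.85 (limma adjusted p = 0.0494) and the chemokine-like Cklf at -2.80 (limma adjusted p = 4.70e-05).

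The calls in BRAFV600E rested on the slides in different degrees. With slide as a block, which leaves the estimate to slide 1, 7 of the 11 members stayed called (Ccl3, Ccl4, Ccl6, Ccl9, Ccl25, Cxcl16 and Cxcr6), and all 11 had the same sign. Within slide 1 alone 4 stayed called (Ccl4, Ccl6, Ccl9 and Ccl25). Ccl6 differed there by -3.18 (limma adjusted p = 0.00372), Ccl9 by -2.44 (limma adjusted p = 0.0152), Ccl4 by -1.60 (limma adjusted p = 0.0392), Ccl25 by -1.08 (limma adjusted p = 0.0462), Ccl3 by -1.36 (limma adjusted p = 0.0535) and Cxcr6 by -0.88 (limma adjusted p = 0.0560). Cxcr3, Cxcl11, Cx3cr1 and Ccr3 differed there by -0.62 (limma adjusted p = 0.192), -0.75 (limma adjusted p = 0.159), -0.57 (limma adjusted p = 0.193) and -0.50 (limma adjusted p = 0.319). With the slide block these 4 had adjusted p-values of 0.113, 0.109, 0.123 and 0.240. With the Y-linked mean as a covariate 6 of the 11 stayed called (Ccl3, Ccl6, Ccl9, Cx3cr1, Cxcl16 and Cxcr6), and on arrays with high Y-linked signal only (4 against 3) 2 did, Cxcl16 and Cxcr6, with all 11 in the same direction.

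Cxcl16, Ccl3, Ccl6 and Cxcr6 kept their calls in BRAFV600E when any 1 array was left out. The other 7 did not, and each kept its direction. Ccl9 was no longer called without Cre control replicates 2 or 3 or BRAFV600E replicates 2 or 4 (differences -1.55 to -1.45, adjusted p up to 0.0539), Cx3cr1 without Cre control replicates 1, 2 or 3 or BRAFV600E replicates 1, 3 or 6 (differences -0.54 to -0.48, adjusted p up to 0.0767) and Cxcr3 without Cre control replicates 1, 2, 5 or 6 or BRAFV600E replicates 1, 3 or 4 (differences -0.60 to -0.50, adjusted p up to 0.0653). Ccl4 lost its call without Cre control replicates 2, 3, 5 or 6 or BRAFV600E replicates 2, 3, 4 or 6 (differences -1.0004 to -0.86, adjusted p up to 0.0940). Ccl25 lost it without Cre control replicates 2, 3, 5 or 6 or BRAFV600E replicates 1, 2, 4, 5 or 6 (differences -0.74 to -0.58, adjusted p up to 0.0927), Cxcl11 without Cre control replicates 1, 2, 3, 5 or 6 or BRAFV600E replicates 1, 2, 3, 4 or 6 (differences -0.69 to -0.61, adjusted p up to 0.0837) and Ccr3 without Cre control replicates 1, 2, 3, 4 or 6 or BRAFV600E replicates 1, 2, 3, 4, 5 or 6 (differences -0.66 to -0.52, adjusted p up to 0.0951).

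Under the MEK inhibitor Cxcl16 fell and no other member passed the test. This 1 of 44 members (2.27%) compares with 1.98% of 19229 genes tested, and with 0.884% of all genes called lower, so the share is near the background. At an unadjusted p under 0.05 there were 8 members (18.2%), against 16.4% of all genes. The median difference was 0.10 over the members and 0.04 over all genes, and 27 of 44 differences (61.4%) were positive against 54.6% of all genes. The 4 MEKi arrays did not overlap the 4 Vehicle arrays for 3 members, Cxcl16, Ccl6 and Cxcr3 (6.82%, against 12.2% of all genes).

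Ccl6 and Cxcr3 stood higher under MEKi on every array without passing. Ccl6 read 4.86, 4.86, 4.65 and 4.27 under MEKi and 3.87, 3.01, 3.84 and 3.71 under Vehicle (log2 difference 1.05, SE 0.23, limma adjusted p = 0.0650). Cxcr3 read -2.10, -2.36, -1.93 and -1.99 under MEKi and -2.72, -2.46, -2.61 and -2.98 under Vehicle (log2 difference 0.60, SE 0.16, limma adjusted p = 0.109). Both had fallen in BRAFV600E. The differences of the other members that fell in BRAFV600E were, under MEKi, 0.70 for Ccl9, -6.36e-05 for Ccl3, 0.36 for Ccl4, 0.40 for Ccl25, 0.13 for Cxcl11, 0.24 for Ccr3, 0.33 for Cxcr6 and -0.07 for Cx3cr1, with limma adjusted p-values of 0.271 or more. Ccl5 read 4.25, 3.44, 3.86 and 4.62 under MEKi and 3.09, 3.81, 3.49 and 2.60 under Vehicle (log2 difference 0.80, SE 0.33, limma adjusted p = 0.277), with overlap.

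The monocyte attractants had negative differences under MEKi with wide spreads. Ccl2 read -2.65, -1.63, -1.67 and -2.69 under MEKi and 1.55, 0.43, -1.80 and -2.54 under Vehicle, and Ccl7 read -4.77, -3.29, -4.27 and -6.66 under MEKi and -0.77, -1.53, -4.48 and -4.94 under Vehicle. Vehicle replicates 1 and 2 were high for both, whereas Vehicle replicates 3 and 4 lay among or near the MEKi arrays. The differences were -1.57 (SE 0.86, limma adjusted p = 0.430) for Ccl2, -1.81 (SE 1.08, limma adjusted p = 0.475) for Ccl7 and -1.22 (SE 0.45, limma adjusted p = 0.220) for Ccl12. Ccl8 went the other way, at 1.08 (SE 0.73, limma adjusted p = 0.537), and MEKi replicate 2, at 1.47, lay well above the other 3 MEKi arrays. Ccr2 differed by -0.33 (SE 0.37, limma adjusted p = 0.726), and macrophage markers gave 0 calls of 9 (median -0.06).

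Of the interferon-induced ligands, Cxcl9 and Cxcl10 stood above every Vehicle array on 3 of the 4 MEKi arrays, and neither passed the test. Cxcl9 read -0.65, -2.40, -0.12 and -0.40 under MEKi and -1.68, -1.83, -1.60 and -1.92 under Vehicle (log2 difference 0.86, SE 0.45, limma adjusted p = 0.407). Cxcl10 read -0.84, -2.06, -0.32 and -0.59 under MEKi and -1.50, -2.08, -1.45 and -1.39 under Vehicle (log2 difference 0.66, SE 0.37, limma adjusted p = 0.442). In both genes MEKi replicate 2 lay at or near the bottom of all 8 arrays, and without it Cxcl9 differed by 1.36 (limma adjusted p = 0.0187). Cxcl11 differed by 0.13 (SE 0.18, limma adjusted p = 0.799). Of the 18 interferon-gamma responsive genes 8 were called higher and 0 lower (44.4%, against 1.98% of all genes called in either direction). The list median was 0.95, with a list mean of 1.62 to 2.44 under MEKi and 0.50 to 1.07 under Vehicle. Without scaling between arrays 4 were called higher. Y-linked signal was high on all 4 MEKi arrays but only on Vehicle replicates 1 and 3. With the Y-linked mean as a covariate the calls over all genes fell from 380 to 53. Whether these 8 calls hold with that covariate is not reported here. The 8 included the class II regulator Ciita, the GTPase genes Igtp and Irgm1, the immunoproteasome genes Psmb8, Psmb9 and Psmb10 and the peptide transporter Tap1, with Igtp furthest at 2.69 (limma adjusted p = 0.0263).

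T cell markers gave 0 calls of 11 under MEKi, with 10 positive differences (median 0.64, list mean -0.10 to 0.87 under MEKi and -0.62 to -0.01 under Vehicle), and Gzmb, a cytotoxic granule gene, was called higher at 1.36 (limma adjusted p = 0.0496). Their part in the differences of Cxcr3, Ccl5 and Cxcl9 was not tested. Of the receptors of lymphocyte homing, Ccr6, Ccr7 and Ccr9 differed by 0.75, 0.41 and 0.23 with limma adjusted p-values of 0.636, 0.746 and 0.749, and Ccr10 and Cxcr4 by 0.06 and 0.21 (0.971 and 0.829). Of the ligands not yet named, Ccl20 differed by -0.32 (SE 0.75, limma adjusted p = 0.891), Ccl28 by 0.36 (SE 0.43, limma adjusted p = 0.749), Cx3cl1 by -0.17 (SE 0.22, limma adjusted p = 0.779), Cxcl1 by -0.50 (SE 0.46, limma adjusted p = 0.667), Cxcl12 by 0.17 (SE 0.30, limma adjusted p = 0.845), Cxcl13 by 0.52 (SE 1.01, limma adjusted p = 0.862) and Cxcl14 by -0.52 (SE 0.36, limma adjusted p = 0.546). A further 12 members tested, Ccl1, Ccl11, Ccl17, Ccl19, Ccl21a, Ccl24, Ccl27a, Ccr4, Ccr8, Cxcl5, Cxcr2 and Xcl1, lay between -0.63 (Ccl11 and Ccl17) and 0.61 (Ccl27a), with limma adjusted p-values of 0.260 or more. Grk6 was the 1 signalling gene of 26 called, lower at -0.75 (limma adjusted p = 0.0352), against the direction it had in BRAFV600E.

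The 2 comparisons share no array, so their directions could be set side by side. Of the 43 members tested in both, 23 were lower in BRAFV600E and higher under MEKi, 6 were higher in BRAFV600E and lower under MEKi, 11 were lower in both and 3 higher in both. The 29 opposite members are 67.4% of 43, against 70.2% of the 18576 genes tested in both. Of the 10 members that fell in BRAFV600E, 8 had a positive difference under MEKi, against 90.7% of all genes called lower in BRAFV600E. Neither share sets the members apart from other genes. The 2 exceptions, Ccl3 and Cx3cr1, had MEKi differences of -6.36e-05 and -0.07.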

How the data were processed

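RNA of 20 mice was hybridised to 1-colour Agilent mouse arrays, and the authors deposited each scanner file, with signal intensity per spot from Feature Extraction 10.5.1.1. The deposited series matrix also holds intensity on a linear scale, with no centring or scaling between arrays found (100% of its spots lay within 0.6% of the scanner value, column medians 57.6 to 154). Log2 of the background-subtracted, spatially detrended intensity was taken, and the 75th percentile of each array subtracted. Control spots and outlier-marked spots were left out, and each gene was read from its brightest probe by mean level over all 20 arrays. Genes were tested where the scanner's mark put that probe clearly above background on 6 or more of 12, or 4 or more of 8, arrays.

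Of 56605 non-control probes, 33821 were named through RefSeq accession, 10183 through symbol and 330 through synonym. The other 12271 matched no RefSeq gene and were not tested. Groups were compared within each experiment by limma 3.58.1 (R 4.3.3), lmFit and eBayes, without covariates. Tests were two-sided, with Benjamini-Hochberg adjustment over all genes tested and a threshold of 0.05. Python 3.11.15 with pandas 2.3.3, numpy 2.4.6 and matplotlib made the tables and plots. On simulated data with 200 changed genes, the fit over 19039 genes of the BRAFV600E comparison recovered 91% of those changed by a log2 of 2 and 47% of those changed by 1, with 4 false calls. Over the 19229 genes of the MEKi comparison it recovered 75% and 43%, with 6 false calls. The simulated noise was independent between genes and held no slide or sex effect, so these rates may not hold for the measured arrays.

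The members, role lists, pathway lists and markers were chosen with earlier results of these data known. Named members were those called in either comparison, the 8 with the largest absolute difference in each, and fixed ligand and receptor sets. From the lists, called genes and at most 4 with the largest differences were eligible, and a few genes of the lists and 1 member are not reported here. Alternatives varied scaling, background correction, dim-probe filter, probe choice, moderation, samples in the fit, a Y-linked covariate, slide and single arrays, and arrays with high Y-linked signal were fitted alone after the data had been seen. The number of arrays limits the precision, and p-values measure the spread between mice. The treatment text of the labels is the same on all arrays, matches no group and was not used, and 0 columns of per-array values were left unused.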

Additional observations from a re-analysis of the deposited data

Results flagged for a closer look

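Single arrays stood apart from the rest of their group for 11 of 152 sets of a member and a group, by the gap of the highest or lowest array to the next one, and chance alone is set to give such a gap in about 5% of sets. In BRAFV600E replicate 2, Ccl24 was lowest at -1.12 (others 0.58 to 1.44), Xcl1 lowest at -3.50 (others -2.46 to -1.93) and Cxcl14 highest at 2.80 (others 2.27 to 2.38). In BRAFV600E replicate 3, Cxcl1 was highest at -1.79 (others -5.13 to -3.93). In Cre control, Cxcl11 was lowest in replicate 4 at 7.98 (others 8.65 to 8.89), and Cxcl9 highest in replicate 1 at -0.0366 (others -1.42 to -0.94).

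In MEKi replicate 2, Ccl8 was highest at 1.47 (others -0.52 to -0.50) and Ccr9 lowest at -2.02 (others -0.97 to -0.83). In Vehicle replicate 2, Ccr9 was highest at -1.15 (others -1.49 to -1.47) and Cxcl10 lowest at -2.08 (others -1.50 to -1.39). In Vehicle replicate 1, Cxcr2 was highest at -4.48 (others -5.17 to -5.11). Of these members only Cxcl11 had passed the test in BRAFV600E, and without Cre control replicate 4 its call held. Leaving out MEKi replicate 2 brought Cxcl9 past the threshold.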

How the results depend on the processing

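No paired analysis was possible because the labels number no replicates across groups. The count of members called in BRAFV600E, 11, was 7 with normexp background correction, 6 without scaling between arrays, 5 without the filter on dim probes, 6 with the Y-linked mean as a covariate, 7 with the mean over a gene's probes, 4 within slide 1, 2 on arrays with high Y-linked signal only, and 5 to 12 with 1 array left out (5 to 7 without Cre control replicate 1, 2, 3, 5 or 6 or BRAFV600E replicate 1, 2, 3, 4 or 6). The members' median was 0.28 without scaling, -0.24 with normexp background correction and -0.62 to -0.36 with 1 array left out. Its size thus also depends on how background was handled. Without scaling, 6 members called lower had positive differences (Ccl25 0.0575, Ccr3 0.22, Cx3cr1 0.26, Cxcl11 0.15, Cxcr3 0.22 and Cxcr6 0.0925), and 19 rather than 29 members had opposite signs in the 2 comparisons. That setting moves the median of all genes by construction. Over all genes the 2372 calls became 9336 without scaling, 1533 with slide as a block, 734 within slide 1, 412 on arrays with high Y-linked signal and 1441 to 2863 with 1 array left out. Under MEKi the 1 member called became 2 with normexp, 2 with a trended and robust eBayes, 0 without scaling, 0 on arrays with high Y-linked signal only and 1 to 2 with 1 array left out (2 without MEKi replicate 2). The median ranged from 0.00079 to 0.27 with 1 array left out. The 380 calls over all genes became 72 without scaling, 234 without the filter, 53 with the Y-linked covariate, 78 on arrays with high Y-linked signal and 76 to 376 with 1 array left out. The cause of the other changes was not tested. Members below the filter were dim, and their differences are not reported.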
